A study of Homo sapiens with 12 samples.

Results

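The transcripts of 8 genes of one proteolytic system were followed through HepG2, an established human hepatoma cell line. They encode the tissue inhibitors of metalloproteinases TIMP1, TIMP2 and TIMP3, the membrane-bound matrix metalloproteinases MMP14 and MMP15, and the membrane-bound disintegrin metalloproteases ADAM9, ADAM10 and ADAM17. The 8 genes were taken by symbol from a table of 35984 genes, and all 8 were among the 16118 genes with enough counts to be tested. They were selected on gene family with the fitted changes over these 4 groups already known. TIMP3 was known to stand among the genes with the largest difference between the lines, so its differences between lines are given as a description with no test. For the other members, p-values come from the fit over all 16118 genes and describe a difference against the spread between libraries.

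RNA sequencing covered 12 libraries in 4 groups of 3. One line is labelled control (CTL). In the other (double knock-down, DKD), shRNA cassettes against macroH2A1 and macroH2A2 had been integrated with retroviral pRetroSUPER vectors. The macroH2A proteins are histone H2A variants with a large additional domain. All cells were serum-starved overnight, and TNFα at 20 ng/mL, or vehicle for the groups called untreated, was then present for 24 hours. Separate cultures are not stated for the libraries within a group, so a p-value measures the spread among libraries, and that spread may be technical. Nor do the labels say how many transduced pools or clones each line stands for, so an effect of the knock-down and a difference between 2 cell populations cannot be told apart.

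TIMP proteins inhibit metalloproteases by filling the active site with their N-terminal domain. TIMP3 is held in the extracellular matrix and is known for inhibiting ADAM17 in addition to matrix metalloproteinases, while TIMP1 and TIMP2 are soluble. MMP14 and MMP15 cut matrix and other proteins at the cell surface. ADAM10 and ADAM17 are sheddases, which release the outer parts of membrane proteins: ADAM17 was first known as the enzyme that frees TNF from the cell surface. In liver this system is studied mostly in matrix turnover and in the shedding of cytokine and growth factor receptors.

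Library totals ran from 30955080 to 42094144 estimated counts, and levels are given as CPM, a gene's count scaled for library size with TMM factors. A single count equalled 0.0238 to 0.0323 CPM. Libraries of equal number deviated together from their group means: over all tested genes, the correlation of these deviations was 0.193 to 0.695 in all 18 pairs of equal number from different groups. A library 2 and a library 3 from different groups were also positively correlated, at 0.0388 to 0.311. Pairs of a library 1 with another number were all negative, at -0.201 to -0.544. Centring fixes part of this, since the 3 deviations of a gene in a group sum to 0. With the positive values between libraries 2 and 3, the shared deviation lay partly between libraries 1 and the rest. The number was therefore also added to the model as a block, and for the 8 members the blocked value is given wherever it changes a call. For lists of other genes, counts of calls with the block are given. The DKD libraries numbered 1 stood farthest from the other 2 of their group, with a median absolute distance over genes of 0.406 without and 0.296 with TNFα on the log2 scale, against 0.134 to 0.245 in the remaining libraries. Both knock-down targets were low in DKD: MACROH2A1 stood at 236 ± 27.4 CPM in untreated CTL and 46.2 ± 12.2 in untreated DKD (SD, n = 3), and MACROH2A2 at 57.8 ± 2.85 and 5.11 ± 0.790. The 7 hepatocyte markers, which include ALB, AFP and APOB, summed to 21779 to 23613 CPM in untreated CTL, 17370 to 19318 in CTL with TNFα, 27049 to 40354 in untreated DKD and 20454 to 27097 in DKD with TNFα. Of these 7, 3 were called higher in DKD at each treatment, and 3 in CTL and 4 in DKD were called lower with TNFα. Over all tested genes 3.13% were higher in DKD untreated and 3.94% with TNFα, and 0.726% in CTL and 0.254% in DKD were lower with TNFα. With the block 5 of the 7 were called higher in DKD at each treatment. Lower with TNFα were then 5 in CTL and 4 in DKD. The shares of all genes with the block were 9.17% and 10.6% higher in DKD, and 4.7% and 2.13% lower with TNFα. The 5 leukocyte markers, of which CD3E was at 0, summed to 359 to 541 CPM without and 950 to 1254 CPM with TNFα. Of them 1 rose in each line, where 1.9% of all tested genes did in CTL and 1.54% in DKD. LYZ made up nearly all of this sum, with means of 382 CPM without and 1007 with TNFα in CTL and 454 and 1106 in DKD. CD68 went the other way, from 11.5 to 8.93 CPM in CTL and from 8.41 to 6.30 in DKD. PTPRC and CD14 never passed 16 counts. With the block 1 leukocyte marker rose and 1 fell with TNFα in each line. The shares of all genes were 7.94% and 4.7% in CTL and 5.55% and 2.13% in DKD. Between the lines 1 was then lower in DKD at each treatment, against 7.31% untreated and 8.79% with TNFα. In CTL the 4 biliary markers summed to 272 to 281 CPM untreated and 315 to 359 with TNFα. In DKD they summed to 301 to 349 CPM untreated and 348 to 368 with TNFα. Of the 3 tested, 1 was called higher in untreated DKD in both fits, against 3.13% and 9.17% of all genes. With the block 2 rose with TNFα in CTL and 1 in DKD, against 7.94% and 5.55%. The 4 endothelial markers never passed 2.49 CPM, and the 1 tested was not called in either fit. The part of these shifts in the members' values was not tested.

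Short stretches before the RefSeq start sites (assembly GRCh38.p14) are shown for 4 members: TIMP3, which differed most between the lines, TIMP1, whose direction was opposite to that of TIMP3 in every pair of libraries of equal number, and ADAM10 and ADAM17, whose levels ran closest together. Promoter entries existed for 6 of the 8 genes. Both strands of the 250 bases before each start were searched for 5 motifs. They were the Sp1 site GGGCGG, the CCAAT box, the AP-1 site TGANTCA, its relative TGAGTAA and the NF-kB consensus. Capitals mark the matches. The TIMP3 stretch, chr22:32801455-32801700 on the plus strand, holds 5 GGGCGG matches and 1 CCAAT match, some on the reverse strand. The TIMP1 stretch, chrX:47582323-47582352 on the plus strand, surrounds the TGAGTAA match, which lies -101 to -95 from the RefSeq start. The ADAM10 stretch, chr15:58749719-58749748, and the ADAM17 stretch, chr2:9555869-9555898, are on the minus strand and surround matches to the NF-kB consensus. By the GENCODE v29 gene bounds given below, the TIMP3 stretch lies before the gene. The stretches of TIMP1, ADAM10 and ADAM17 lie inside the annotated gene. The sequences read 5′ to 3′ along the gene.
TIMP3: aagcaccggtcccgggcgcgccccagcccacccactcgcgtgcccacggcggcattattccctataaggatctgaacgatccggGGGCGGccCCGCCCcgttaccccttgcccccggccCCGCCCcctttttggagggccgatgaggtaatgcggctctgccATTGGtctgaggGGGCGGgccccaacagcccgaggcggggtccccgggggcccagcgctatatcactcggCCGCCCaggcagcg
TIMP1: atggtgggtggaTGAGTAAtgcatccagga
ADAM10: acgagggggaGGGAGGTCCCtgttttggag
ADAM17: cggggcaagcGGAGCCTCCCgggatgccgc

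Among 35116 promoters of the same length, 42.6% held GGGCGG, 32.0% CCAAT, 6.57% TGANTCA, 2.21% TGAGTAA and 9.96% the NF-kB consensus. TGANTCA was in none of the 6 windows, and the NF-kB consensus was in those of ADAM10 and ADAM17 alone. The TIMP3 window held 26 CpG dinucleotides, MMP15 and ADAM17 31 each, ADAM10 25, TIMP1 12 and MMP14 7, against a median of 11 over all promoters. These matches describe the letters of the windows. Binding and methylation were not measured in these libraries.

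Levels can be compared between genes only per length, here as CPM per kilobase of the longest principal transcript in GENCODE v29. In untreated control cells ADAM9 was highest at 50.7 ± 4.06 CPM per kilobase (SD, n = 3), followed by TIMP1 at 24.7 ± 5.93. ADAM17 (14.04 ± 0.475), ADAM10 (12.8 ± 1.13) and MMP15 (11.95 ± 2.24) came next and did not differ beyond their spread. TIMP3 (3.06 ± 0.579) and TIMP2 (1.35 ± 0.422) were low, and MMP14 was lowest at 0.170 ± 0.0815 CPM per kilobase. In untreated DKD cells TIMP3 stood second at 23.3 ± 7.31 CPM per kilobase, within the spread of TIMP1 at 18.0 ± 10.3. The place of ADAM10 rests on its 11431-base transcript: with the median length of its coding transcripts it would be highest. Below, all levels are CPM and are compared only within a gene.

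TIMP3 (chromosome 22, 32801701 to 32863043, plus strand in GENCODE v29, build GRCh38, as for the genes below) was the member with the largest difference between the lines. Untreated libraries 1, 2 and 3 held 16.8, 14.1 and 11.4 CPM in CTL and 146, 88.7 and 87.3 CPM in DKD. With TNFα they held 9.51, 8.51 and 7.80 CPM in CTL and 108, 68.5 and 70.5 CPM in DKD. Every DKD library was above every CTL library by a wide margin, and library 1 was the highest of its group in all 4 groups. The fitted log2 difference of DKD from CTL was 2.93 (SE 0.25) untreated and 3.26 (SE 0.26) with TNFα, or 7.63-fold and 9.55-fold. Without DKD library 1 of the same treatment it was 2.65 and 3.01. Stellate cells and fibroblasts are known sources of TIMP3. Their 8 markers summed to 25.2 to 28.1 CPM in untreated CTL, 27.7 to 34.7 in untreated DKD, 23.9 to 29.2 in CTL with TNFα and 33.8 to 47.8 in DKD with TNFα. ACTA2 alone made up nearly all of each sum, with means of 25.1, 28.7, 24.5 and 38.6 CPM in the same order of groups. It was the only marker called, higher in DKD with TNFα, where 3.94% of all tested genes were. With the block 1 of the 4 tested was called, in the same comparison and direction, against 10.6% of all genes. LUM and DES reached at most 2 counts in any library and COL1A2 11, and COL1A1, DCN and PDGFRB never passed 0.951 CPM. COL3A1, with too few counts to be tested, was lower in DKD. It had 5 to 8 counts in untreated CTL and 1 in each untreated DKD library. With TNFα it had 7 to 19 in CTL and 0 to 3 in DKD. The part of these markers in the TIMP3 values was not tested. In bulk RNA, here and below, more cells of a type and more RNA per cell cannot be told apart.

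Within each line TIMP3 was lower with TNFα in all 3 pairs of equal number. The ratios in pairs 1, 2 and 3 were 0.568, 0.605 and 0.683 in CTL and 0.737, 0.772 and 0.807 in DKD. In CTL the groups did not overlap. The fitted log2 change there was -0.71 (SE 0.24, adjusted p = 0.191), and with the block it was -0.70 (SE 0.12, adjusted p = 0.00369), which is a fall. In DKD it was -0.39 (SE 0.23, adjusted p = 0.704), and -0.38 (SE 0.10, adjusted p = 0.0542) with the block, which missed the threshold, and the groups overlapped.

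**Figure D1:**
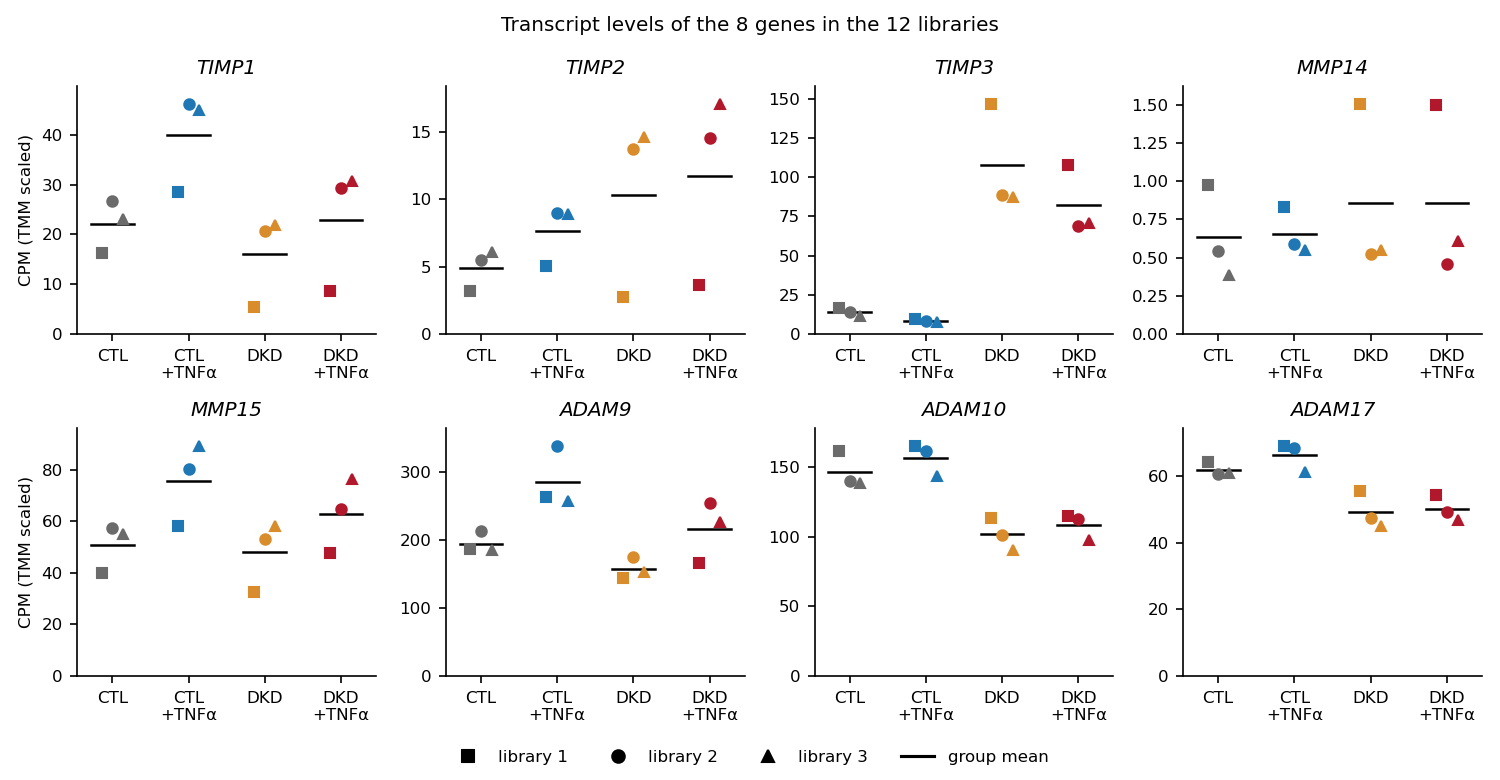
Level of each transcript in CPM (vertical axes, starting at 0) in the 12 libraries, by group on the horizontal axis. Marker shape gives the library number and the bar is the group mean. TIMP3 is above 68 CPM in all 6 DKD libraries and at most 16.8 CPM in all 6 CTL libraries, while library 1 is lowest for TIMP1 and TIMP2 in every group.

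TIMP1 (chromosome X, 47582313 to 47586789, plus strand), the soluble inhibitor often induced in inflamed tissue, ran opposite to TIMP3. Untreated libraries 1, 2 and 3 held 16.3, 26.7 and 23.0 CPM in CTL and 5.44, 20.8 and 21.9 CPM in DKD. With TNFα they held 28.4, 46.1 and 45.0 CPM in CTL and 8.57, 29.4 and 30.8 CPM in DKD. Library 1 was low in every group, and in DKD it stood 1.97 below libraries 2 and 3 on the log2 scale without TNFα and 1.81 below with it. Within pairs the TNFα ratio was nonetheless narrow, at 1.75, 1.72 and 1.96 in CTL and 1.58, 1.41 and 1.41 in DKD. The fitted log2 changes were 0.86 (SE 0.53, adjusted p = 0.541) in CTL and 0.51 (SE 0.53, adjusted p = 0.920) in DKD, and with the block the adjusted p of 0.0637 and 0.317 still missed the threshold. From libraries 2 and 3 alone both passed, at 0.87 (SE 0.09, adjusted p = 6.98e-04) and 0.49 (SE 0.09, adjusted p = 0.0137).

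Between the lines TIMP1 was lower in DKD in all 3 pairs, at ratios of 0.334, 0.777 and 0.952 untreated and 0.301, 0.637 and 0.684 with TNFα. Pair 1 carried the largest difference in both treatments. The fitted log2 difference with TNFα was -0.80 (SE 0.53, adjusted p = 0.510), and it was called lower with the block (-0.95, SE 0.26, adjusted p = 0.0306). Without DKD TNFα library 1 the difference, fitted with no block, was -0.41. Untreated it was -0.45 (SE 0.53, adjusted p = 0.751), and -0.04 without DKD untreated library 1.

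TIMP2 (chromosome 17, 78852977 to 78925387, minus strand) encodes the inhibitor that also bridges MMP14 to the latent gelatinase MMP2. Without TNFα, libraries 1, 2 and 3 held 3.19, 5.51 and 6.09 CPM in CTL and 2.73, 13.7 and 14.6 CPM in DKD. TNFα-treated libraries held 5.07, 9.02 and 8.93 CPM in CTL and 3.65, 14.6 and 17.1 CPM in DKD. The direction between the lines thus depended on the pair: DKD was lower in pair 1, at ratios of 0.858 and 0.719 without and with TNFα, and higher in pairs 2 and 3, at 2.49 and 2.40 untreated and 1.62 and 1.91 with TNFα. Over all 12 libraries the log2 difference was 1.07 (SE 0.63, adjusted p = 0.449) untreated and 0.62 (SE 0.62, adjusted p = 0.721) with TNFα. From libraries 2 and 3 alone it was 1.29 (SE 0.12, adjusted p = 4.82e-04) and 0.82 (SE 0.11, adjusted p = 0.00254), both called higher. In DKD, library 1 stood 2.37 below the other 2 on the log2 scale without TNFα and 2.11 below with it. TNFα ratios of TIMP2 in CTL were 1.59, 1.64 and 1.46, with a fitted log2 change of 0.64 (SE 0.63, adjusted p = 0.766) that passed only from libraries 2 and 3 (0.62, SE 0.12, adjusted p = 0.012). In DKD the ratios were 1.33, 1.06 and 1.17, with a fitted log2 change of 0.18 (SE 0.62, adjusted p = 0.985). Without DKD untreated library 1 that change reversed, to -0.28.

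MMP2, whose activation TIMP2 and MMP14 are best known for, was nearly undetected, with 1 count in 1 of the 12 libraries. MMP14 itself (chromosome 14, 22836557 to 22849027, plus strand), the membrane type 1 enzyme, was detected at only 16 to 60 counts per library. It stood at 0.634 ± 0.304 CPM in untreated CTL, 0.656 ± 0.151 in CTL with TNFα, 0.858 ± 0.559 in untreated DKD and 0.854 ± 0.563 in DKD with TNFα (SD, n = 3). Library 1 was the highest in each group, and in DKD it alone passed 1 CPM, at 1.503 without and 1.498 with TNFα, against 0.457 to 0.608 in the other 4. No comparison of MMP14 was called, with or without the block. The 95% interval of the log2 difference between the lines, from its SE and 8 residual degrees of freedom, was -0.85 to 1.701 untreated. With the block and 6 residual degrees of freedom it was -0.32 to 1.09. The parts of low counts and of libraries 1 in this width were not tested.

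MMP15 (chromosome 16, 58025566 to 58046901, plus strand), the membrane type 2 enzyme, was the well-expressed one of the pair. Untreated libraries 1, 2 and 3 held 39.9, 57.5 and 55.0 CPM in CTL and 32.6, 53.0 and 58.1 CPM in DKD. With TNFα they held 58.1, 80.2 and 89.0 CPM in CTL and 47.5, 64.8 and 76.2 CPM in DKD. Every pair was higher with TNFα, by 1.46-fold, 1.39-fold and 1.62-fold in CTL and 1.46-fold, 1.22-fold and 1.31-fold in DKD. The log2 change was 0.58 (SE 0.25, adjusted p = 0.333) in CTL and 0.39 (SE 0.25, adjusted p = 0.738) in DKD. With the block MMP15 rose in both, by 0.57 (SE 0.08, adjusted p = 0.00115) and 0.40 (SE 0.08, adjusted p = 0.0103). Under TNFα it was lower in DKD in all 3 pairs (log2 difference -0.27, SE 0.25, adjusted p = 0.686), a call with the block (-0.27, SE 0.08, adjusted p = 0.0308). Without DKD TNFα library 1 it was -0.10, fitted with no block.

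ADAM9 (chromosome 8, 38996869 to 39105144, plus strand) encodes an adhesive and proteolytic membrane protein, and was higher with TNFα in all 6 pairs. Without TNFα, libraries 1, 2 and 3 held 187, 212 and 184 CPM in CTL and 144, 175 and 153 CPM in DKD. TNFα-treated libraries held 263, 337 and 257 CPM in CTL and 166, 254 and 226 CPM in DKD. All 3 CTL libraries with TNFα were above all untreated CTL libraries, and the DKD groups overlapped. The log2 change with TNFα was 0.55 (SE 0.16, adjusted p = 0.106) in CTL and 0.45 (SE 0.16, adjusted p = 0.280) in DKD, and in CTL it passed without DKD TNFα library 1 (adjusted p = 0.0383). With the block ADAM9 rose in both, by 0.55 (SE 0.09, adjusted p = 0.00366) and 0.44 (SE 0.09, adjusted p = 0.0145). Every DKD library was below every CTL library of the same treatment. The log2 difference was -0.31 (SE 0.16, adjusted p = 0.367) untreated and -0.41 (SE 0.16, adjusted p = 0.184) with TNFα, and both were called with the block, at adjusted p = 0.0424 and 0.00964.

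ADAM10 (chromosome 15, 58588807 to 58749978, minus strand), the sheddase of Notch receptors and cadherins, was lower in DKD with little spread. Untreated libraries 1, 2 and 3 held 162, 140 and 139 CPM in CTL and 114, 101 and 90.5 CPM in DKD. With TNFα they held 165, 161 and 144 CPM in CTL and 115, 113 and 98.2 CPM in DKD. The groups did not overlap, and the 6 pair ratios lay between 0.653 and 0.723. The log2 difference was -0.53 (SE 0.11, adjusted p = 0.0156) untreated and -0.53 (SE 0.11, adjusted p = 0.0140) with TNFα. The untreated call was lost without CTL library 1 (adjusted p = 0.0676), DKD library 2 (0.0593) or DKD library 3 (0.0516), and the call with TNFα without CTL library 1 (0.0524) or 2 (0.0529). With only the 2 groups compared in the fit the untreated difference also missed the threshold (adjusted p = 0.0868). TNFα ratios lay between 1.02 and 1.15 in the 6 pairs, and the change passed no test in either line (0.09, SE 0.11, adjusted p = 0.811 in CTL, and 0.10, SE 0.11, adjusted p = 0.930 in DKD).

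ADAM17 (chromosome 2, 9488486 to 9556732, minus strand), the TNF-releasing enzyme, resembled ADAM10. Its levels in untreated libraries 1, 2 and 3 were 64.4, 60.7 and 60.9 CPM in CTL and 55.5, 47.4 and 45.1 CPM in DKD. After TNFα they were 69.0, 68.6 and 61.3 CPM in CTL and 54.3, 49.3 and 46.8 CPM in DKD. DKD was below CTL in every library of both treatments. With TNFα the log2 difference was -0.40 (SE 0.10, adjusted p = 0.0328), and untreated it was -0.33 (SE 0.10, adjusted p = 0.0908), or -0.33 (SE 0.06, adjusted p = 0.00518) with the block. The call with TNFα was lost without CTL TNFα library 1 or 2, DKD TNFα library 2 or 3, or CTL untreated library 3, at adjusted p = 0.0515 to 0.112, and the untreated difference passed without DKD untreated library 1 (adjusted p = 0.0184). In a fit of only the 2 groups compared the call with TNFα was lost (adjusted p = 0.0680), and DESeq2 called the untreated difference (adjusted p = 0.00897). TNFα ratios in pairs ran from 0.979 to 1.13, and neither line passed the test (adjusted p = 0.771 and 0.990). Exons of IAH1 overlap ADAM17 exons on the opposite strand by up to 1257 bases. Whether the counting used strand is not given in the sources used here, so reads there cannot be told apart. TIMP2 and ADAM10 also have antisense RNAs over up to 367 and 136 bases of their exons, whose symbols were not matched in the table. IAH1 stood at 15.3 to 19.2 CPM in untreated CTL and 12.8 to 21.6 in untreated DKD, and its log2 difference with TNFα was 0.06 (SE 0.24).

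**Figure D2:**
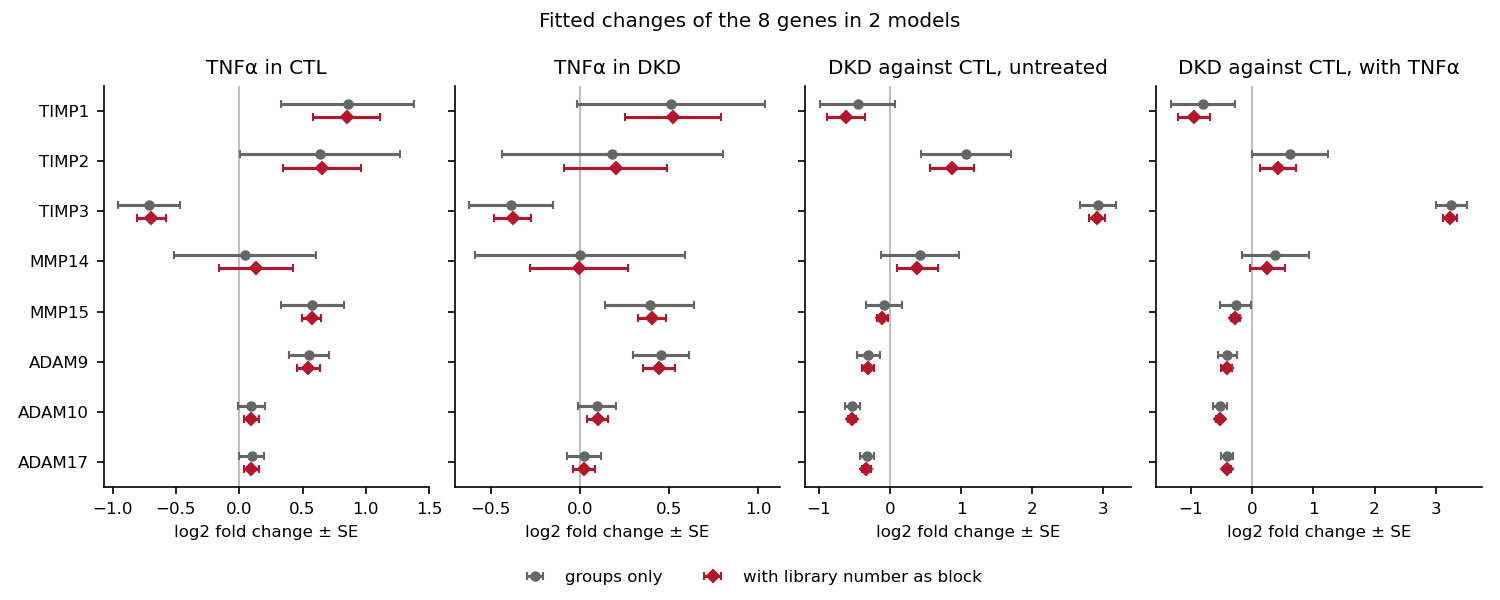
Fitted log2 fold change (horizontal axes, which differ between panels) with its SE for each gene in 4 comparisons. Grey circles are the model with groups only and red diamonds the model with the library number as a block. The block leaves most estimates near their place and narrows the error bars, and TIMP3 lies near 3 in both comparisons between lines.

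Between the untreated lines 2 of 8 members were called, TIMP3 higher and ADAM10 lower, while 4.98% of all tested genes were called (3.13% higher and 1.86% lower). With TNFα 3 of 8 were called, TIMP3 higher and ADAM10 and ADAM17 lower, where 6.24% of all genes were (3.94% higher and 2.3% lower). The TIMP3 call is part of why the genes were chosen and nothing is read from it, which leaves 1 call untreated and 2 with TNFα. DESeq2 called 3 of 8 at each treatment, with ADAM17 added untreated. With the block 4 of 8 were called untreated, 1 higher and 3 lower, against 16.5% of all genes (9.17% and 7.31%), and 6 of 8 with TNFα, 1 higher and 5 lower, against 19.4% (10.6% and 8.79%). TIMP3 was the 1 higher with the block at each treatment and was among the DESeq2 calls. Nothing is read from its part in these counts either.

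For TNFα in CTL no member was called with edgeR, where 2.62% of genes were (1.9% higher and 0.726% lower). TIMP3, MMP15 and ADAM9 had an unadjusted p under 0.05 there, and DESeq2 called ADAM9. In DKD none was called by either tool, where edgeR called 1.79% of genes (1.54% higher and 0.254% lower), and ADAM9 alone had an unadjusted p under 0.05. With the block 3 of 8 were called in CTL, MMP15 and ADAM9 higher and TIMP3 lower, against 12.6% of all genes (7.94% and 4.7%). In DKD MMP15 and ADAM9 were called higher, against 7.67% of all genes (5.55% and 2.13%).

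Direction within pairs needs the same background. With TNFα, 7 of 8 members moved the same way in all 3 CTL pairs and 6 of 8 in all 3 DKD pairs, against 52.3% and 44.7% of all genes. Groups did not overlap for 4 of 8 members in CTL and for none in DKD, against 25.1% and 12.3%. Between the lines 4 of 8 did not overlap at either treatment, against 21.7% and 25.4%, and 5 and 6 of 8 had the same direction in all 3 pairs, against 48.5% and 55.7%. These counts between lines include TIMP3, so nothing is read from them. The median log2 change of the 8 was 0.33 with TNFα in CTL and 0.14 in DKD, and -0.19 and -0.34 between the lines without and with TNFα, while the medians over all genes lay between -0.01 and 0.01.

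**Figure D3:**
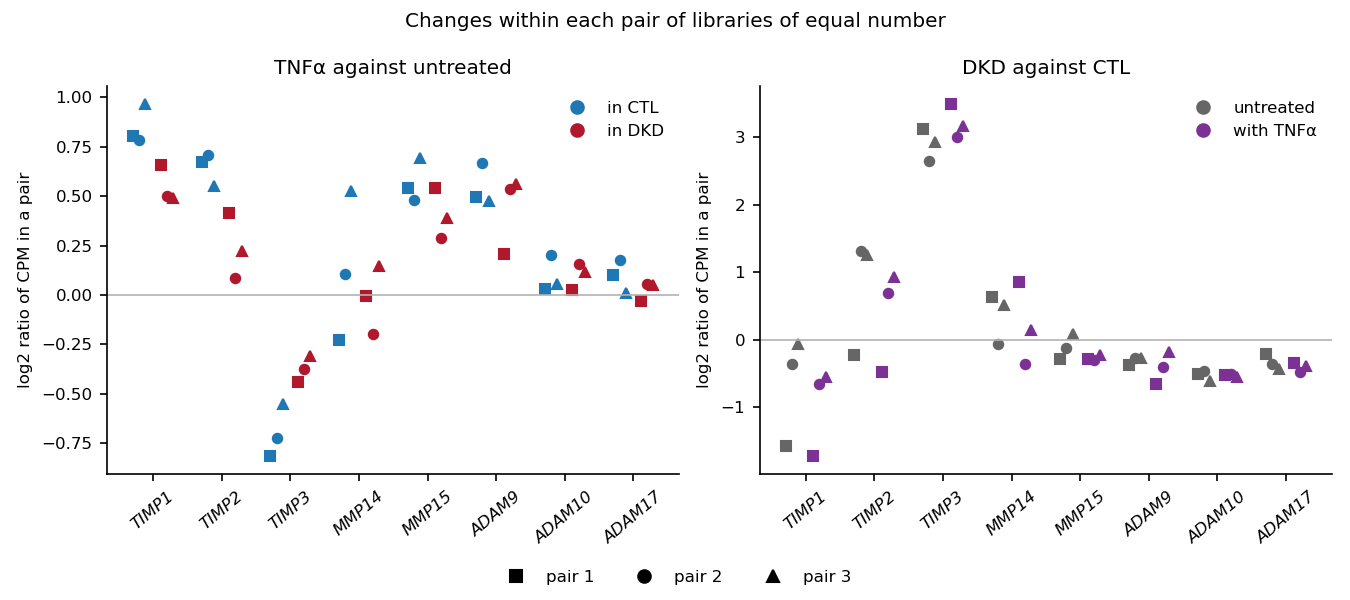
Log2 ratio of CPM (vertical axes) within each pair of libraries of equal number, for TNFα against untreated in each line (left) and DKD against CTL at each treatment (right). Marker shape gives the pair. TIMP1, TIMP2, MMP15, ADAM9 and ADAM10 are above 0 and TIMP3 below 0 in all 6 TNFα pairs, and TIMP2 changes sign between pair 1 and the other pairs in the comparison of lines.

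Whether the TNFα response differed between the lines was tested by the interaction, which is the change in DKD minus that in CTL. No member was called by edgeR with or without the block or by DESeq2, and none had an unadjusted p under 0.05 in any of these fits. Over all genes edgeR called 0% in both fits, with 184 and 556 at an unadjusted p under 0.05, and DESeq2 called 5 genes. For TIMP3 the interaction was 0.32 (SE 0.34), with a 95% interval of -0.06 to 0.70 in the fit with the block. For TIMP1 it was -0.34 (SE 0.74), with an interval of -1.24 to 0.59 with the block. The narrowest interval was that of ADAM10, at -0.19 to 0.20 with the block.

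Members resembled each other to different degrees. After subtracting each gene's mean, ADAM10 and ADAM17 lay 0.10 apart as a root mean square of log2 CPM over the 12 libraries, the least of all 28 pairs of members, and MMP15 and ADAM9 0.26 apart. TIMP1, TIMP2 and TIMP3 had group means spanning more than 1 on the log2 scale, and their nearest genes were sought among 11111 well-expressed ones. Nearest to TIMP3 were ROR1 (0.33), a receptor tyrosine kinase-like gene, SYNE3 (0.33), a nuclear envelope protein gene, and ALCAM (0.35), an adhesion gene. ROR1 stood at 3.79 CPM in untreated CTL, 2.68 in CTL with TNFα, 20.6 in untreated DKD and 15.3 in DKD with TNFα. Nearest to TIMP1 were SLC16A5, TNFRSF12A and IDS, at 0.20 to 0.21. TNFRSF12A, the receptor of the cytokine TWEAK, stood at 21.2, 44.7, 16.0 and 26.5 CPM in the same order of groups. Nearest to TIMP2 were FBXL16 (0.21), GPAT3 (0.23) and TLCD1 (0.27). These values share libraries and depth and carry no test.

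Other genes of the system were taken from 6 lists. Without the block 2.62% of all tested genes were called for TNFα in CTL and 1.79% in DKD. Between the lines 4.98% were called untreated and 6.24% with TNFα. With the block these shares were 12.6%, 7.67%, 16.5% and 19.4%, and the calls in each list stand against them. Of 21 other matrix metalloproteinase genes only 7 had enough counts, and MMP9 reached at most 5 counts. MMP19 rose with TNFα in CTL, from 0.533 ± 0.0765 to 2.24 ± 0.784 CPM (log2 change 2.07, SE 0.40, adjusted p = 0.0207), and in DKD its change was called with the block (adjusted p = 0.0254; 0.121 without). MMP20 and MMP24 were higher in DKD at both treatments, the only 2 of the 7 called between the lines without the block. Both had few counts: MMP20 had 6 to 9 in untreated CTL and 25 to 31 in untreated DKD, and MMP24 5 to 9 and 22 to 34. With the block MMP3 also fell with TNFα in CTL (5 to 26 counts untreated, 0 to 3 with TNFα), and MMP19 was called lower in DKD with TNFα (adjusted p = 0.0492, and 0.226 without). MMP24, a membrane-type enzyme, stood at 0.187 ± 0.0571 CPM in untreated CTL and 0.675 ± 0.221 in untreated DKD (log2 difference 1.84, SE 0.40, adjusted p = 0.0221).

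Among 5 tested inhibitor genes outside the TIMP members A2M alone was called without the block, higher in DKD at both treatments. With the block 2, A2M and PZP, were called higher in DKD at both treatments, and A2M was called lower with TNFα in each line. Over all tested genes 3.13% were higher in DKD untreated and 3.94% with TNFα without the block, and 9.17% and 10.6% with it. Lower with TNFα were 4.7% in CTL and 2.13% in DKD with the block. A2M encodes alpha-2-macroglobulin, a plasma protein that traps proteases, and stood at 1135 ± 211 CPM in untreated CTL and 2997 ± 1028 in untreated DKD (log2 difference 1.40, SE 0.24, adjusted p = 0.00601). Its fall with TNFα had an adjusted p of 0.00690 in CTL and 8.24e-04 in DKD with the block, and 0.429 and 0.228 without. RECK, a membrane-anchored inhibitor, stood between 4.99 and 5.37 CPM in all 4 group means. In DKD, library 1 was lowest, at 3.25 CPM untreated and 3.60 with TNFα, against 5.28 to 6.37 in DKD libraries 2 and 3. CTL libraries held 5.06 to 5.57 CPM. Of 17 other ADAM genes 7 were tested. ADAM19 had 24 to 77 counts in the CTL libraries and 0 to 2 in the DKD libraries (adjusted p = 0.00180 untreated and 0.00112 with TNFα), and ADAM23 was lower in untreated DKD (0 to 5 counts against 11 to 38, adjusted p = 0.0311). No other of the 7 was called without the block. The shares of all tested genes lower in DKD were 1.86% untreated and 2.3% with TNFα, or 7.31% and 8.79% with the block. With the block ADAM15, ADAM19 and ADAM23 were lower in DKD at both treatments, ADAM11 was higher in DKD with TNFα and fell with TNFα in CTL, and ADAM22 rose with TNFα in DKD. Of 19 ADAMTS genes, the secreted relatives, 6 were tested and none was called in any comparison with edgeR. With the block, ADAMTS2 was called higher in DKD at both treatments and ADAMTS6 lower untreated, and none was called for TNFα.

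Genes for the maturation of these enzymes were all measured, 14 of 14. PCSK5, a proprotein convertase, was lower in DKD and rose with TNFα in both lines. It stood at 61.0 ± 3.60 CPM in untreated CTL, 133 ± 7.22 in CTL with TNFα, 28.3 ± 6.54 in untreated DKD and 71.1 ± 13.7 in DKD with TNFα. Its log2 change with TNFα was 1.13 (SE 0.18, adjusted p = 0.00651) in CTL and 1.33 (SE 0.18, adjusted p = 0.00305) in DKD. RHBDF2 encodes iRhom2, the partner that carries ADAM17 to the cell surface, and rose with TNFα in CTL from 17.1 ± 3.52 to 42.2 ± 10.9 CPM (log2 change 1.30, SE 0.26, adjusted p = 0.0231). In DKD it stood at 22.1 ± 4.84 and 42.2 ± 10.1 CPM (0.94, SE 0.25, adjusted p = 0.123, and 2.74e-04 with the block). Without the block these were the only 2 of the 14 called. That is 2 higher with TNFα in CTL and 1 in DKD, against 1.9% and 1.54% of all tested genes. Between the lines 1 was lower in DKD at each treatment, against 1.86% untreated and 2.3% with TNFα. With the block TSPAN15 also rose with TNFα in both lines and RHBDF1 in CTL. Between the lines RHBDF2 was then also higher in untreated DKD, FRMD8 lower at both treatments, and PCSK7 and RHBDF1 lower with TNFα. In all, 4 of the 14 then rose with TNFα in CTL and 3 in DKD, against 7.94% and 5.55% of all genes. In DKD 1 was higher and 2 lower untreated, against 9.17% and 7.31%. With TNFα 0 were higher and 4 lower, against 10.6% and 8.79%. The median log2 change of the 14 was 0.14 with TNFα in CTL and 0.02 in DKD.

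Of 32 genes whose proteins are known to be shed by ADAM10 or ADAM17, 26 were tested. With TNFα 3 rose in CTL, where 1.9% of all tested genes did, and 4 in DKD, where 1.54% did, and none fell. With the block 12 rose and 1 fell in CTL, against 7.94% and 4.7% of all genes, and 10 rose and 0 fell in DKD, against 5.55% and 2.13%. The adhesion gene ICAM1 rose by 2.08 (SE 0.17, adjusted p = 1.53e-04) in CTL and 1.74 (SE 0.17, adjusted p = 3.94e-04) in DKD, and SDC4, which encodes syndecan-4, by 1.52 (SE 0.24, adjusted p = 0.00639) and 1.32 (SE 0.23, adjusted p = 0.0164), all on the log2 scale. Between the lines 1 was higher and 1 lower untreated, and 2 higher and 3 lower with TNFα (3 and 5, and 4 and 9, with the block). Over all tested genes 3.13% were higher and 1.86% lower untreated, and 3.94% and 2.3% with TNFα. With the block these shares were 9.17% and 7.31%, and 10.6% and 8.79%. ALCAM, counted among those higher, has a difference that was known beforehand and is given with no test, at 5.89 ± 1.43 CPM in untreated CTL and 70.6 ± 13.9 in untreated DKD. JAG1, a Notch ligand gene, was lower by 0.64 (SE 0.15, adjusted p = 0.0275) untreated and 0.98 (SE 0.15, adjusted p = 0.00244) with TNFα. The median of the 26 was 0.32 with TNFα in CTL and 0.23 in DKD, and 0.00 and -0.17 between the lines.

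**Figure D4:**
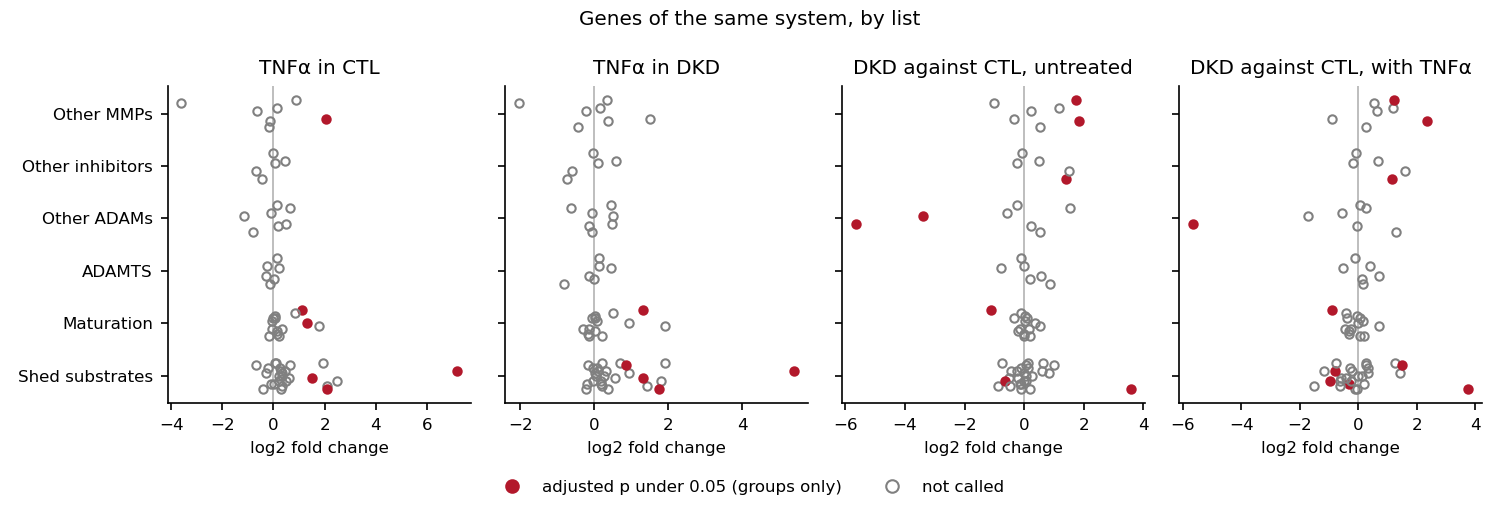
Log2 fold change (horizontal axes, which differ between panels) of each tested gene in 6 lists of related genes, for 4 comparisons. Filled red points passed an adjusted p of 0.05 in the model with groups only. Most points lie near 0, and the farthest left in both comparisons between lines is ADAM19, which had 0 to 2 counts in the DKD libraries.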

How the data were processed

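Per the labels, total RNA of HepG2 cells gave 12 Illumina libraries. The submitters' processing notes name CASAVA 1.7, Salmon 0.14.0, DESeq2 and the builds GRCh38 and hg38. The authors deposited estimated counts per gene symbol, already whole numbers. They also deposited a normalised signal, which equals those counts divided by 1 factor per library and was used only for that check. Annotation, strandedness and the step from transcripts to genes: not given in the sources used here. Columns were matched to samples by title.

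edgeR 4.0.16 (R 4.3.3) was run on all 12 libraries with 1 mean per group, TMM factors, filterByExpr (minimum count 10, total 15) and the quasi-likelihood test, and Benjamini-Hochberg adjustment over 16118 genes at 0.05. CPM uses the same factors. Each log2 change is from this fit, and SE is its size over the square root of F. Alternatives were RLE factors, DESeq2 1.42.0, no filter, the library number as a block, libraries 2 and 3 only, only the 2 groups compared, and each library left out. The pairing by number comes from the data: all 18 correlations of deviations between libraries of equal number exceeded 0.1, against 11 of 36 between other numbers. Those 11 all joined a library 2 with a library 3. Centring on group means by itself lowers the correlations between other numbers when those of equal number are positive. The fit was tested on simulated data.

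The members and lists were chosen with earlier results of these data known. Named were all 8 members, the knock-down targets, up to 4 called genes of a list with the smallest p, and the 3 genes nearest in pattern to members spanning more than 1 (average log2 CPM of at least 2). IAH1, RECK, MMP2, MMP9 and list genes called only with the block were added after their values were seen. Estimated counts from Salmon split shared reads between similar genes, and 1 count is the floor of what can be seen.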

Additional observations from a re-analysis of the deposited data

How the results depend on the processing

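RLE factors and no filter on low counts kept all 40 log2 changes of the members (8 genes, 5 contrasts) on their side of the threshold and in their direction. No other scaling moved the median of all genes by over 0.1. In the order TNFα in CTL, TNFα in DKD, knock-down untreated and knock-down with TNFα, the fit called 423, 289, 803 and 1005 genes and 0, 0, 2 and 3 members. DESeq2 called 1070, 655, 1434 and 1760 genes, 5 for the interaction, and 1, 0, 3 and 3 members. The replicate block called 2037, 1237, 2657 and 3133 genes and 3, 2, 4 and 6 members. It changed no member's call from passed to not passed. Libraries 2 and 3 alone gave 2225, 1360, 1983 and 2375 genes and 5, 2, 4 and 5 members. Fitting only the 2 groups compared gave 691, 41, 332 and 812 genes and 1, 0, 1 and 2 members. Leaving out both DKD libraries numbered 1, chosen after seeing the data, gave 1400, 466, 1384 and 1501 genes and 3, 0, 4 and 4 members. The cause of these shifts was not tested.

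MMP14 reversed in the knock-down with TNFα with libraries 2 and 3 (-0.0954) and without both DKD libraries 1 (-0.294; untreated -0.247), where MMP15 reversed untreated too (0.131). With each library left out in turn, genes called ran from 149 to 709, 127 to 357, 423 to 917 and 572 to 1545 (interaction 0 to 1), and members from 0 to 1, 0 to 0, 1 to 3 and 1 to 3. Log2 changes that reversed in some of these fits, none of them called, were MMP14 with TNFα in CTL (-0.239 to 0.504) and DKD (-0.678 to 0.643), in the knock-down (-0.238 to 0.881 untreated, -0.300 to 0.677 with TNFα) and in the interaction (-0.722 to 0.608), MMP15 in the untreated knock-down (-0.254 to 0.136), TIMP2 (-0.281 to 0.608) and ADAM17 (-0.0543 to 0.0954) with TNFα in DKD, and the interactions of ADAM10 (-0.0708 to 0.0781), ADAM17 (-0.136 to 0.00714), ADAM9 (-0.232 to 0.0555) and TIMP1 (-0.760 to 0.0479). MMP14 had 16 to 60 counts a library and was highest in library 1 of every group. The part of either in these reversals was not tested.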
